A study of Mus musculus with 20 samples.

Results

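Migratory type 1 conventional dendritic cells (cDC1s) sorted from peripheral lymph nodes were compared between mice lacking the erythropoietin receptor gene Epor in Xcr1-expressing cells and Epor-floxed controls. The comparison takes in 6 of the 20 libraries of the study, chosen by their labelled tissue and genotype, with 3 libraries a side and all 55487 genes of the count table. The study sequenced RNA of sorted cDC1s in several settings, among them cells taken after TLI/ATS and cells sorted by EpoR. Spleen CCR7+ cDC1s of the same 2 genotypes, 3 libraries each, were counted in the same table and share its estimate of the spread.

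The control libraries carry the genotype Eporflox/flox and the knockout libraries Epor-Xcr1-Cre cKO, in which Cre recombinase driven from Xcr1, a chemokine receptor gene of cDC1s, removes the floxed Epor segment. Both groups are labelled as CCR7+ XCR1+ SIRPa- cells. No treatment is named for either lymph node group. The controls are named by the floxed allele alone, so the presence of Cre and the loss of Epor cannot be told apart in this comparison. Age, sex, strain, the number of mice behind a library and any pooling are not given in the sources used here.

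Epor encodes the cell-surface receptor for erythropoietin, the hormone of red cell production. Ligand binding activates the receptor-bound kinase JAK2, which phosphorylates STAT5 and opens the PI3-kinase and MAP kinase branches, and proteins of the SOCS and CISH family feed back on it. cDC1s are the dendritic cells specialised in taking up dead cells through CLEC9A and presenting their antigens on MHC class I. When they mature, by microbial signals or in the steady state, they raise CCR7 and move through lymph to the draining node, where they present antigen to T cells for immunity or for tolerance.

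The targeted gene was checked first. Epor (ENSMUSG00000006235, chr9:21958897-21963506 on the minus strand of GRCm38) had 24, 28 and 4 counts in control libraries 1, 2 and 3 and 0 counts in each of the 3 cKO libraries. The first 2 controls were well above the third, and no cKO library had a count. On the CPM scale (counts divided by each library size after TMM scaling), the controls were at 0.537, 0.626 and 0.0967 CPM, and 0 counts allow up to 0.0648, 0.0686 and 0.0568 CPM in the cKO libraries, for counting error only. Taken over each group, with 3 counts over the cKO group as the floor, Epor was at least 20.4-fold lower in the cKO libraries. Without cKO library 3 it was at least 12.9-fold lower. These floors treat each count as a separate event and leave out the error of the control counts. A read pair may add 2 counts here, so the true bounds may be lower. The gene was too low for the filter of the test. With no filter its unadjusted p was 0.00381 and its adjusted p 0.329. In spleen the counts were 1, 0 and 6 in the controls and 0, 2 and 0 in the cKO libraries, so neither group can be told from the floor in most libraries.

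The lymph node libraries held 37.0 to 49.7 M counts and 19416 to 21157 genes with a count. Genes of the sort were present in all 6: Ccr7, the receptor that guides cells to the node, was at 4573, 3800.4 and 4187 CPM in the controls and 4530.4, 4504 and 4819.5 CPM in the cKO libraries, and Xcr1 at 29.98, 21.6 and 32.3 CPM in the controls and 24.9, 24.03 and 19.3 CPM in the cKO libraries. Sirpa, the marker of the excluded cDC2s, was at 6.15, 8.59 and 7.18 CPM in the controls and 4.64, 8.87 and 5.55 CPM in the cKO libraries. The cDC1 factors Irf8 and Batf3 (1173, 1204 and 1116 against 1020.5, 1001 and 1054 CPM, and 315, 361 and 353 against 372, 384 and 371 CPM) and the maturation marker Fscn1 (4211, 5180.3 and 5261 against 5732, 4071 and 5657 CPM) were present in all 6 as well.

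Libraries of 1 group shared features beyond their genotype. Among 31 immunoglobulin V segments with at least 15 counts over the 6 libraries, 7 had at least 3 counts in all 3 controls and under 3 in every cKO library, and 7 others had the reverse pattern. Across these segments the log2 level correlated between libraries of 1 group with r of 0.885 to 0.953, and between groups with r of −0.590 to −0.409, which describes the same segments and no independent samples. Igkv10-96, a kappa light chain V segment, was at 4.79, 4.21 and 4.42 CPM in the controls and had no count in any cKO library. On the same floor of 3 counts it was at least 213-fold lower. Igkv12-46 was at 0.0447, 0.0447 and 0.0242 CPM in the controls and at 8.75, 8.41 and 10.1 CPM in the cKO libraries. The summed V level was close in both groups (40.4 to 42.7 against 39.4 to 46.4 CPM), so the groups differed in which segments were present. In spleen, r between groups was 0.515 to 0.596 over 166 segments. The spleen groups also differed, with a summed V level of 350 to 407 CPM in controls and 866 to 1081 CPM in cKO libraries. There 32 segments had at least 3 counts in all 3 cKO libraries and under 3 in every control, and 2 the reverse.

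A second set of genes split the groups in the same all-or-none way. Genes of salivary and other glands, 12 in number and listed after their values had been seen, summed to 902, 1397 and 787 CPM in the 3 controls and to 1.90, 0.411 and 0.189 CPM in the cKO libraries. Bpifa2, a protein secreted by the parotid gland, was at 642, 989.9 and 561 CPM in the controls and had 50, 6 and 0 counts in the cKO libraries. Amy1, the salivary amylase, was at 87.4, 167 and 74.2 CPM in the controls against 0.389, 0.137 and 0.152 CPM. Smr3a, another salivary protein, was at 32.7, 39.2 and 35.0 CPM in the controls and had 1 count in all cKO libraries together. The labels do not say that the 3 libraries of a group came from separate mice or separate sorts, so the p-values below measure only the spread between these libraries, which may be technical. What the libraries of a group share beyond genotype cannot be told apart from the knockout.

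**Figure D1:**
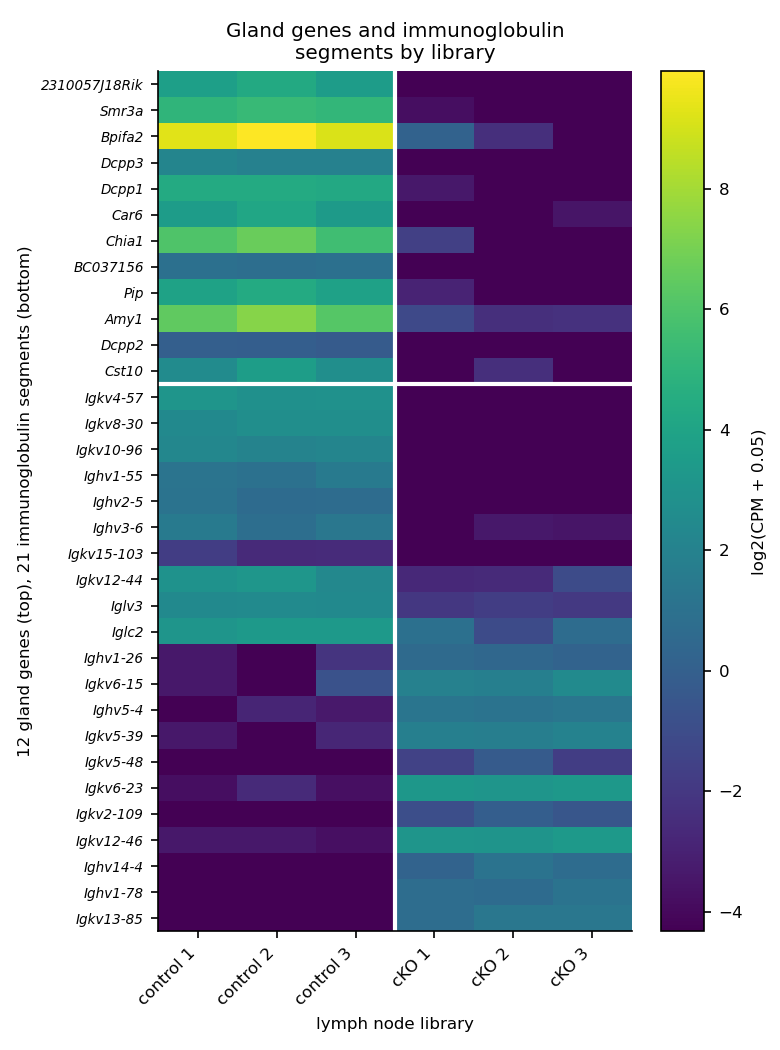
Level of 12 gland genes (above the white line) and of the 21 immunoglobulin segments past the threshold (below it) in each lymph node library, as log2(CPM + 0.05), with controls to the left and cKO to the right. Gland genes were high in all 3 controls and at or near 0 in all 3 cKO libraries, and each segment was present in the libraries of 1 group and at or near 0 in most or all of the other, except Iglc2, which was lower but present in the cKO libraries.

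Of 17362 genes that passed the filter on low counts, 79 (0.455%) passed an adjusted p of 0.05 in edgeR's quasi-likelihood test. Of these, 50 were higher in the cKO libraries (0.288% of genes tested) and 29 lower (0.167%), and 1304 genes had an unadjusted p under 0.05. The balance of directions turned in a fit of the 6 lymph node libraries alone (14 higher, 30 lower) and with the replicate number as a block (16 higher, 19 lower). Immunoglobulin segments made up 21 of the calls, 11 higher and 10 lower, and gland genes made up 11, all lower. The remaining 47 genes, 39 higher and 8 lower, are the subject of what follows. Their changes were small: 39 of the 47 had an absolute log2 fold change under 1, over a range of −0.88 to 1.43. In none of the 47 did the 3 controls overlap the 3 cKO libraries, which their choice by a small p in these libraries makes likely and which adds nothing to the calls. Over all genes tested, the groups did not overlap for 15.5% (7.80% higher, 7.72% lower).

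These 47 calls lean on the shared fit with the spleen libraries. In a fit of the 6 lymph node libraries alone, 13 of the 47 passed: Tpm2, Rpl29, Rad50, Adam19, Trim25, 1700028N14Rik and 5430437J10Rik, which were higher, and Hspa1a, Hspa1b, Fos, Jun, Mfge8 and Cd69, which were lower. Leaving out 1 lymph node library kept 20 to 28 of the 47, and 15 passed in each of those 6 fits. Leaving out control library 3 and cKO library 2, which deviated from their groups together, kept 26. The 20 most abundant genes held 15.3%, 15.5% and 15.9% of counts in control libraries 1 and 3 and cKO library 2. They held 17.6% in each of control library 2 and cKO libraries 1 and 3, a split that crosses genotype. With a block for this split, chosen after seeing the data, 100 genes were called in lymph node and 44 of the 47 passed. With the immunoglobulin segments and gland genes removed before the test, 36 of the 47 passed. No gene of the 47 changed sign in any of the 17 alternatives. Groups without overlap make this likely, so it adds nothing to the calls.

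**Figure D2:**
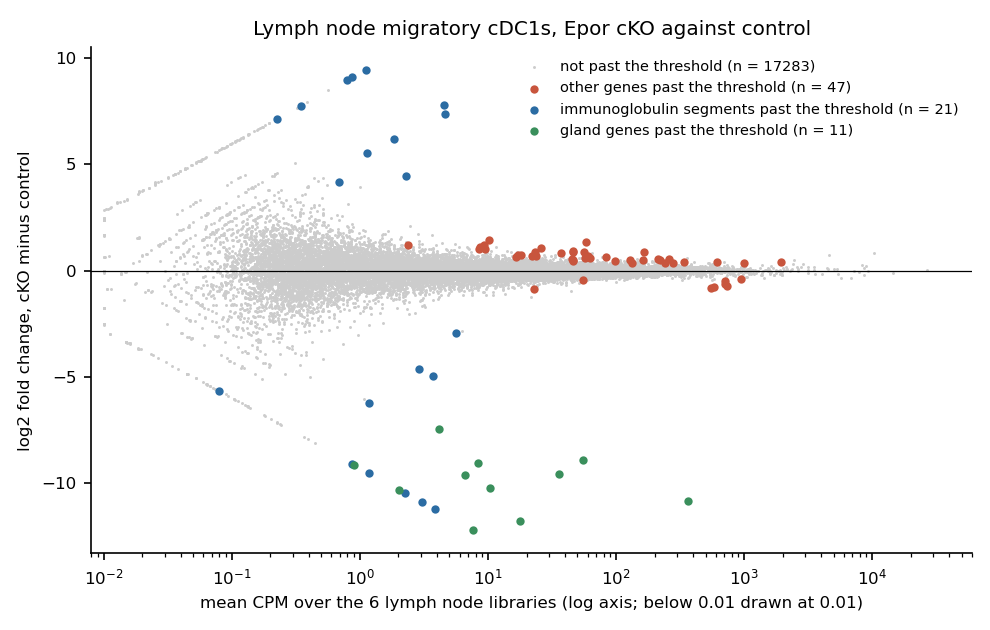
Log2 fold change (cKO minus control) of each of the 17362 genes tested against its mean level over the 6 lymph node libraries (CPM, log axis). Blue and green points are the 21 immunoglobulin segments and 11 gland genes past the threshold, and the 47 other genes past it, in red, lie between −0.88 and 1.43.

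Rad50 and Tpm2 had the strongest evidence of a rise. Rad50 (ENSMUSG00000020380, chr11:53649519-53707319), an ATPase of the MRE11 complex that senses broken DNA ends, was at 124, 116 and 115 CPM in the controls and 215, 203 and 225 CPM in the cKO libraries. All cKO libraries lay above all controls, with a log2 fold change 0.86 ± 0.08 (SE, n = 3 a group), adjusted p = 3.48e-05. Tpm2 (ENSMUSG00000028464, chr4:43514711-43523765), a tropomyosin that coats actin filaments, was at 5.70, 6.20 and 4.71 CPM in the controls and 14.5, 16 and 14.3 CPM in the cKO libraries (1.43 ± 0.14, adjusted p = 3.93e-05). These were also the 2 of the 47 genes that passed in spleen, in the same direction (Rad50 0.54 ± 0.08, adjusted p = 0.00654; Tpm2 0.89 ± 0.14, adjusted p = 0.00636). Rad50 was the 1 called gene of 43 tested p53 and DNA repair genes. Of these 43, 4 were higher and 8 lower without overlap (7.80% and 7.72% over all genes). Tpm2 was the 1 called of 43 tested adhesion and actin genes (over all genes 0.288% were called higher).

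Rpl29, a protein of the large ribosomal subunit, rose with a similar size. It was at 35.7, 26.04 and 36.2 CPM in the controls and 77.8, 100.2 and 73.2 CPM in the cKO libraries (1.36 ± 0.15, adjusted p = 0.000136), with every cKO library above every control. Rpl29 was the 1 called gene of 82 tested cytosolic ribosomal protein genes, whose median log2 fold change was 0.17. Of the 82, 2 were higher and 0 lower without overlap (7.80% and 7.72% over all genes). Ribosomal protein genes have many processed copies in the genome, and reads shared with such copies make the level of Rpl29 uncertain.

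Adam19 and Nectin1, surface proteins of cell contacts, were both higher. Adam19, a membrane metalloprotease that sheds surface proteins, was at 64.7, 66.1 and 63.4 CPM in the controls and 101, 98.7 and 104 CPM in the cKO libraries (0.64 ± 0.08, adjusted p = 0.000525). Nectin1, an adhesion molecule of cell junctions, was at 4.92, 5.55 and 6.12 CPM in the controls and 12.8, 12.2 and 10.3 CPM in the cKO libraries (1.09 ± 0.17, adjusted p = 0.00446). Cytip, which releases dendritic cell contacts by restraining integrin activation through cytohesin, was at 184, 156 and 188 CPM in the controls and 243, 274 and 239 CPM in the cKO libraries (0.52 ± 0.08, adjusted p = 0.0071). All cKO libraries exceeded all controls for these genes, and each stayed past the threshold with any 1 library left out. Adam19 also passed in the fit of the lymph node libraries alone, whereas Nectin1 and Cytip did not (adjusted p = 0.0766 for both).

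**Figure D3:**
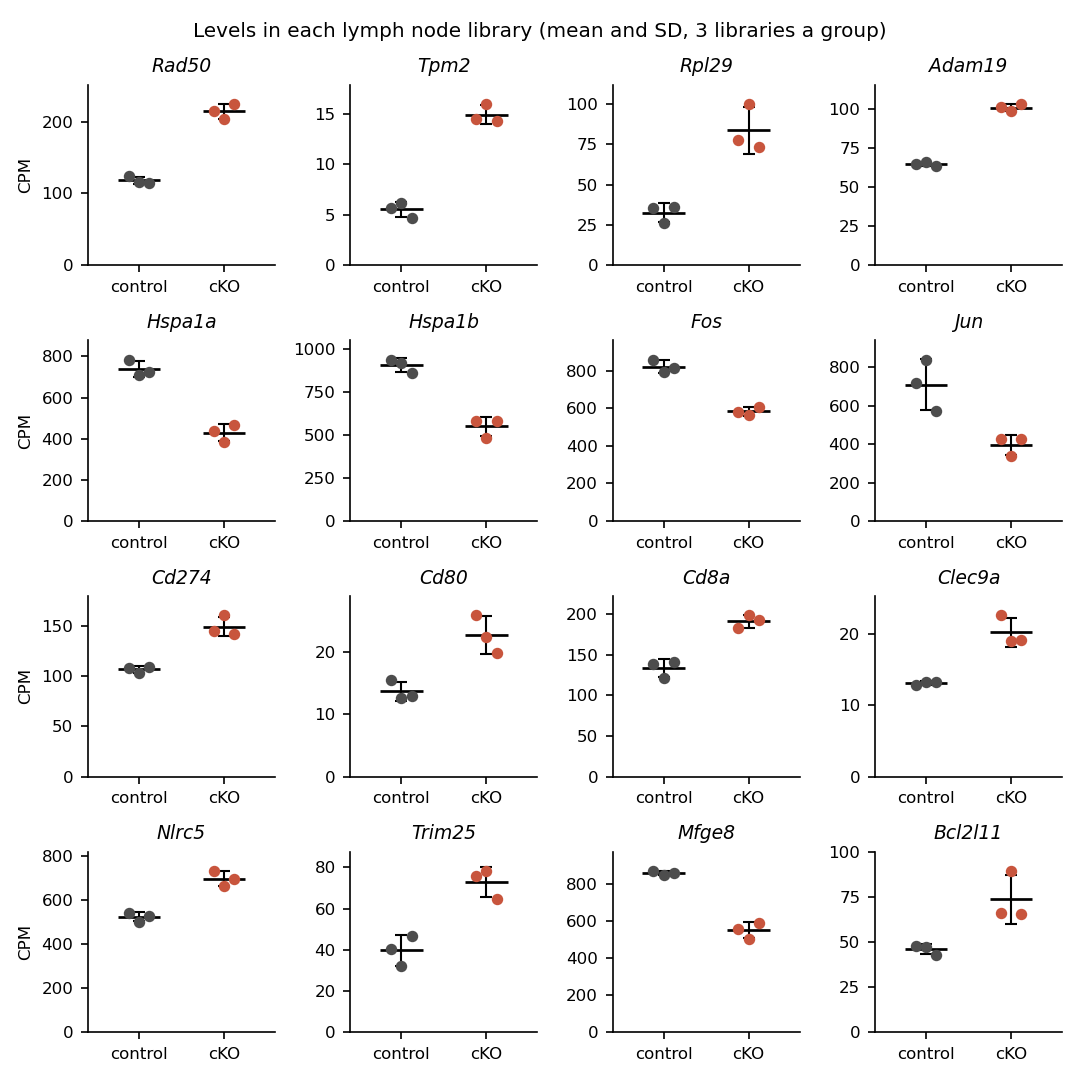
CPM of 16 genes past the threshold in each lymph node library, with the mean and SD of each group (3 controls in grey, 3 cKO libraries in red) and axes from 0. The groups did not overlap for any of them, and the levels of Hspa1a, Hspa1b, Fos, Jun and Mfge8 were lower in the cKO libraries while the others were higher.

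Pik3r1 and Ccnd2 rose among the genes of the receptor's own pathway. Of 36 tested members of the Epor and JAK2-STAT5 list, 2 rose and 0 fell (over all genes 0.288% were called higher and 0.167% lower), with a median log2 fold change of 0.11 against 0 over all genes. Pik3r1, the regulatory p85 subunit of PI3-kinase, was at 264, 304 and 305 CPM in the controls and 406, 382 and 384 CPM in the cKO libraries (0.42 ± 0.08, adjusted p = 0.0212). Ccnd2, a D-type cyclin, was at 52.7, 46.6 and 48.5 CPM in the controls and 65.3, 85.2 and 74.8 CPM in the cKO libraries (0.61 ± 0.11, adjusted p = 0.0225). Both were higher in every cKO library. Pik3r1 missed the threshold without control library 1 or cKO library 1 or 3 (adjusted p up to 0.161), and Ccnd2 passed only without cKO library 1 among those 6 fits (adjusted p up to 0.113 in the others).

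The kinase and the transcription factors of the pathway were not called. Jak2 was at 161, 229 and 172 CPM in the controls and 210.4, 195 and 222 CPM in the cKO libraries (0.16 ± 0.12, adjusted p = 0.884). Stat5a was at 159.7, 131 and 149 against 150.2, 147 and 149 CPM and Stat5b at 94.7, 77.7 and 75.2 against 94.2, 98.7 and 81.2 CPM (log2 fold changes 0.02 and 0.15, adjusted p = 1 and 0.903). The groups overlapped for all of them. Among the feedback inhibitors, Socs3 was at 20.5, 19.2 and 19.8 CPM in the controls and 12.8, 12.5 and 14.2 CPM in the cKO libraries, with every cKO library below every control, but it did not pass (-0.59 ± 0.20, adjusted p = 0.421). Socs2 was at 812, 819.5 and 807 against 846, 871 and 854 CPM (0.08 ± 0.06, adjusted p = 0.899) and Socs1 at 106, 111 and 81.3 against 108, 87.8 and 112 CPM (0.04 ± 0.12, adjusted p = 0.997). Cish, a direct STAT5 target, was low and scattered in both groups (0.224, 0.626 and 1.72 against 0.454, 0.114 and 0.511 CPM). Pim1, a STAT5-induced kinase, was at 99.1, 151 and 99.5 against 180.4, 133 and 165 CPM (0.45 ± 0.15, adjusted p = 0.371) with overlapping groups, and Bcl2l1, the gene of the survival protein BCL-XL, at 129, 134 and 108 against 145, 128 and 149 CPM (0.19 ± 0.10, adjusted p = 0.725).

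Pik3ap1 and Pde4b, which act on PI3-kinase and cyclic AMP signalling, also rose. Pik3ap1, an adaptor that brings PI3-kinase to membrane receptors, was at 12.8, 13.6 and 12.5 CPM in the controls and 19.8, 20.9 and 23 CPM in the cKO libraries (0.71 ± 0.13, adjusted p = 0.0143). Pde4b, a phosphodiesterase that breaks down cyclic AMP, was at 208, 226 and 211 CPM in the controls and 278, 256 and 279.6 CPM in the cKO libraries (0.33 ± 0.07, adjusted p = 0.0459). Neither passed in the fit of lymph node libraries alone (adjusted p = 0.104 and 0.19). Pik3ap1 was lost without control library 1 or 3 or cKO library 3 (up to 0.0965) and Pde4b without any library but cKO library 2 (up to 0.266).

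STAT5 binds palindromes of the form TTCNNNGAA. In the 250 bases before each RefSeq gene start (GRCm38.p6), a match on either strand was found in 7.02% of 32851 promoters, in 5.90% of the 14064 promoters of genes tested and in 2 of 42 promoters (4.76%) of the 31 called higher genes that had one. Pde4b was 1 of them, at 1 of its starts, shown here with the match in capitals because it is the signalling gene among the matches. The region, chr4:102569810-102570059 on the plus strand, ends at the base before this RefSeq start. The start lies within the span of the gene (chr4:102087543-102607259), and the match begins 150 bases before it.
Pde4b: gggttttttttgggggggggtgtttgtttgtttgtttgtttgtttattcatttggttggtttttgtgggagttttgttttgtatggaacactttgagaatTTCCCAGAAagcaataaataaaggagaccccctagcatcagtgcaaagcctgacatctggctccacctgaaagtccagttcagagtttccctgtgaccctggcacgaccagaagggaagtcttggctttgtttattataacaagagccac
A match describes the letters of the window and is no measured site. None of the 8 promoters of the 6 called lower genes with an entry held this motif.

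Some genes that mark cDC1s and their cross-presentation rose. Of 33 tested cDC1 identity genes, 3 rose and 0 fell (median log2 fold change 0.17, against 0.288% called higher over all genes), and 9 were higher and 2 lower without overlap (7.80% and 7.72% over all genes). Cd8a, the surface CD8 alpha chain of resident cDC1s, was at 139, 122 and 141 CPM in the controls and 183, 199 and 193 CPM in the cKO libraries (0.51 ± 0.09, adjusted p = 0.00993). Clec9a, the receptor for actin exposed on dead cells, was at 12.9, 13.3 and 13.2 CPM in the controls and 22.6, 18.97 and 19.1 CPM in the cKO libraries (0.62 ± 0.11, adjusted p = 0.0101). Rab43, a small GTPase needed for cross-presentation, was at 37.1, 36.6 and 37.2 CPM in the controls and 53.8, 54.7 and 52.7 CPM in the cKO libraries (0.54 ± 0.10, adjusted p = 0.0144). For each of these genes every cKO library was above every control.

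Limits on these 3 genes differ. Cd8a missed the threshold without control library 2 (adjusted p = 0.0531) and Clec9a without control library 1 or cKO library 1 (up to 0.0783). Rab43 missed it with any 1 library left out (up to 0.0776), and 75.3% of its exon bases are shared with the gene model Gm45140, so its level is uncertain. Cd8b1, the CD8 beta chain of T cells, was at 22.2, 20.8 and 26.2 against 19.1, 24.7 and 19.5 CPM with overlapping groups. The transcription factors of the lineage were not called: Irf8 was at 1173, 1204 and 1116 against 1020.5, 1001 and 1054 CPM (-0.18 ± 0.07, adjusted p = 0.519), lower in every cKO library, and Batf3 at 315, 361 and 353 against 372, 384 and 371 CPM (0.13 ± 0.08, adjusted p = 0.825), higher in every cKO library. Xcr1 itself, whose promoter drives the Cre, was not called (-0.30 ± 0.15, adjusted p = 0.705), and neither was Itgae (7.16, 2.80 and 6.26 against 4.02, 3.57 and 5.47 CPM; -0.31 ± 0.38, adjusted p = 0.967).

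On the MHC class I side, 2 of 34 tested genes rose and 0 fell (0.288% and 0.167% over all genes). The median log2 fold change of this list was −0.03. Nlrc5, the transactivator of MHC class I genes, was at 541, 502 and 530.3 CPM in the controls and 732, 665 and 698 CPM in the cKO libraries (0.41 ± 0.07, adjusted p = 0.00696), and Rab43 was the other. Nlrc5 was higher in every cKO library. It missed the threshold without cKO library 1 (adjusted p = 0.0657) and in the fit of lymph node libraries alone (adjusted p = 0.0512). The class I genes that Nlrc5 serves were not called, nor was any of 23 tested MHC class II genes by edgeR (median 0.05, 7 at an unadjusted p under 0.05, 1 called by DESeq2 and 1 by limma-voom). Over all genes, 1304 of 17362 had an unadjusted p under 0.05.

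Ligands for T cells rose in part. Of 21 tested costimulatory and checkpoint genes 2 rose and 0 fell (median 0.05). The CCR7-linked maturation programme had 3 rises and 0 falls among 51 genes (median 0.02). Without overlap, 13 of the 51 were higher and 3 lower, and 4 of the 21 were higher and 2 lower (7.80% and 7.72% over all genes). The shares called over all genes were 0.288% higher and 0.167% lower. Cd274 (ENSMUSG00000016496, chr19:29367455-29388095), which encodes the checkpoint ligand PD-L1, was at 108, 102 and 109 CPM in the controls and 145, 160.1 and 142 CPM in the cKO libraries (0.48 ± 0.08, adjusted p = 0.0071). Its cKO libraries all lay above the controls, and it passed with any 1 library left out, though not in the fit of lymph node libraries alone (adjusted p = 0.0644). Cd80, the ligand of CD28 and CTLA-4, was at 15.5, 12.7 and 12.9 CPM in the controls and 25.9, 22.4 and 19.9 CPM in the cKO libraries (0.73 ± 0.15, adjusted p = 0.0342), and was lost without control library 2 or 3 or cKO library 1 or 2 (adjusted p up to 0.209).

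Other ligands and maturation markers were not called. Cd86 was at 81.1, 82.5 and 72.1 against 96.6, 81.7 and 99.1 CPM (0.24 ± 0.11, adjusted p = 0.676) and Cd40 at 683, 623 and 701 against 679, 687 and 749 CPM (0.08 ± 0.07, adjusted p = 0.927), both with overlapping groups. Pdcd1lg2, the gene of PD-L2, was at 22.1, 23.2 and 26.4 against 31.2, 34.4 and 29.5 CPM, higher in every cKO library but with a wide error (0.41 ± 0.26, adjusted p = 0.834). Ccr7 differed by 0.14 ± 0.08, adjusted p = 0.778 and Cd83, a maturation marker, by 0.11 ± 0.09, adjusted p = 0.911. Fscn1, which bundles actin in mature dendritic cells, differed by 0.08 ± 0.12, adjusted p = 0.984, and Relb, the NF-kB subunit of mature dendritic cells, by -0.10 ± 0.06, adjusted p = 0.828.

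Cd274 and Lgals3 rose among the genes linked to tolerance. They were 2 of 40 tested genes on the regulatory list, on which 0 fell (median 0.12, against 0.288% called higher over all genes). Lgals3, the glycan-binding galectin 3, was at 119, 115 and 112 CPM in the controls and 147, 153 and 149.7 CPM in the cKO libraries (0.38 ± 0.07, adjusted p = 0.0187), and missed the threshold with any 1 library left out (adjusted p up to 0.0861). Integrin beta8, which activates latent TGF-beta, was measured through Itgb8 at 24.6, 16.8 and 16.9 against 18.1, 14.5 and 18.4 CPM (-0.19 ± 0.30, adjusted p = 0.984), its partner Itgav at 16.3, 20.6 and 19.9 against 23.2, 21.6 and 21.2 CPM (0.21 ± 0.16, adjusted p = 0.893) and Tgfb1 at 10.5, 16.04 and 9.65 against 15.8, 12.96 and 14.2 CPM (0.25 ± 0.21, adjusted p = 0.915). Aldh1a2, which makes retinoic acid, was at 21.9, 11.6 and 5.42 against 15.1, 13.97 and 16.3 CPM (0.22 ± 0.32, adjusted p = 0.98), with control libraries spread wider than the cKO libraries. Ido1, the tryptophan-degrading enzyme, was low in both groups (3.33, 3.04 and 1.69 against 2.35, 2.63 and 2.01 CPM; -0.21 ± 0.44, adjusted p = 0.993), and Ebi3, a subunit of IL-27 and IL-35, was at 80.9, 73.8 and 79.1 against 67.1, 63.4 and 72.98 CPM (-0.20 ± 0.12, adjusted p = 0.802).

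The NF-kB list held 2 risers of 31 tested genes and no gene that fell, with a median of 0.04. The shares called over all genes were 0.288% higher and 0.167% lower. Of the 31, 6 were higher and 3 lower without overlap (7.80% and 7.72% over all genes). Rel, the c-Rel subunit, was at 174, 178 and 204 CPM in the controls and 267, 272 and 238 CPM in the cKO libraries (0.48 ± 0.09, adjusted p = 0.0165). Map3k14, the kinase NIK of the noncanonical branch, was at 196, 201 and 243 CPM in the controls and 302, 311 and 312 CPM in the cKO libraries (0.53 ± 0.10, adjusted p = 0.0185). Every cKO library was above every control for both. Rel was lost without control library 1 or 2 or cKO library 1 or 2 (adjusted p up to 0.118), and Map3k14 without any library but control library 3 (up to 0.134). 1700028N14Rik, a predicted transcript on the strand of Map3k14 that shares 18.1% of its exon bases with it, rose too (16.9, 17.3 and 16.8 against 39.1, 31.1 and 35.01 CPM; 1.04 ± 0.14, adjusted p = 0.00131), and the reads of the shared bases cannot be assigned to either.

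Cytokines and chemokines were mostly not called (over all genes 0.288% were called higher). Il1b, an inflammatory cytokine, was the 1 riser of 23 tested interleukin and cytokine genes, at 25.2, 20.6 and 35.2 CPM in the controls and 48.6, 45.1 and 47.5 CPM in the cKO libraries (0.80 ± 0.15, adjusted p = 0.0263). Cxcl9, a ligand of CXCR3 on T cells, was the 1 riser of 34 chemokine and receptor genes, at 15.8, 14.9 and 20.7 CPM in the controls and 25.2, 31.9 and 24.4 CPM in the cKO libraries (0.67 ± 0.13, adjusted p = 0.0311). The groups did not overlap for either. Il1b passed only without control library 3 among the fits that left out 1 library (adjusted p up to 0.161 in the others), and Cxcl9 was lost without control library 1 or 2 or cKO library 1 or 2 (up to 0.185). Il12b was at 809, 791 and 745 against 833, 750.0 and 859 CPM (0.06 ± 0.07, adjusted p = 0.964), Ccl22 at 1637, 1220.3 and 1457 against 1236, 1239.5 and 1268 CPM (-0.20 ± 0.09, adjusted p = 0.598), Ccl5 at 8953, 7988 and 10741 against 7303, 9715 and 7208 CPM (-0.19 ± 0.13, adjusted p = 0.848) and Ccl17 at 19.4, 22.8 and 23.98 against 22.2, 18.95 and 20.5 CPM (-0.10 ± 0.18, adjusted p = 0.988), all with overlapping groups.

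Interferon-stimulated genes showed 2 rises and 0 falls among 60 tested (0.288% and 0.167% over all genes), with a median of 0.11. Without overlap, 14 of the 60 were higher and 0 lower, against 7.80% higher and 7.72% lower over all genes. Trim25, the ubiquitin ligase that activates the RNA sensor RIG-I, was at 40.5, 32.04 and 46.9 CPM in the controls and 75.8, 78.2 and 64.7 CPM in the cKO libraries (0.87 ± 0.14, adjusted p = 0.00696). Isg15, a ubiquitin-like protein, was at 43.2, 39.8 and 52.3 CPM in the controls and 68.9, 69.2 and 67.97 CPM in the cKO libraries (0.61 ± 0.12, adjusted p = 0.0382). Trim25 passed with any 1 library left out, and Isg15 passed only without control library 3 (adjusted p up to 0.21 in the others). Members that did not pass, named after their values were seen, included Rsad2 at 40.2, 28.4 and 35.4 against 52.5, 47.8 and 50.7 CPM (adjusted p = 0.0894) and Oasl1 at 70.8, 64.7 and 64.8 against 79.99, 90.2 and 95.9 CPM (adjusted p = 0.109).

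Interferon-stimulated response elements are sequences through which interferon acts on these genes. The promoter of Isg15 is printed because its 3 overlapping matches to the interferon-stimulated response element, searched on both strands, stand in 1 run of 22 bases that begins 78 bases before the start. The region is chr4:156200819-156201068 on the minus strand (RefSeq, GRCm38.p6), written 5′ to 3′ with the matches in capitals.
Isg15: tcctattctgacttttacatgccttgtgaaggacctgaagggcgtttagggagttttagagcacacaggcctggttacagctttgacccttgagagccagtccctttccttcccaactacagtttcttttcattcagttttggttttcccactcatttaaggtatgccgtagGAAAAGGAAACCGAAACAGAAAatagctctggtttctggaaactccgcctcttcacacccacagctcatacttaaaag
The element was found in 2.98% of all promoters, in 2.90% of those of genes tested and in 2 of the 42 promoters of the called higher genes, those of Isg15 and Cytip.

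Immediate early genes moved in both directions. Among 33 tested members 2 rose and 3 fell (0.288% and 0.167% over all genes), and the median was 0.00. Of the 33, 4 were higher and 8 lower without overlap (7.80% and 7.72% over all genes). Fos, an AP-1 subunit, was at 861, 793 and 813 CPM in the controls and 582, 563 and 607.7 CPM in the cKO libraries (-0.49 ± 0.07, adjusted p = 0.00108). Jun, its partner, was at 720.4, 841 and 572 CPM in the controls and 428, 337 and 426 CPM in the cKO libraries (-0.84 ± 0.13, adjusted p = 0.00574). Cd69, an early activation receptor that retains lymphocytes in tissue, was at 31.1, 27.7 and 30.5 CPM in the controls and 15.8, 14.6 and 18.1 CPM in the cKO libraries (-0.88 ± 0.18, adjusted p = 0.0475). All cKO libraries were below all controls for these 3 genes, and all 3 passed in the fit of lymph node libraries alone. Cd69 missed the threshold in the shared fit with any 1 library left out (adjusted p up to 0.231), whereas Fos and Jun did not.

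Of the orphan nuclear receptors on the same list, Nr4a2 and Nr4a3 rose. Nr4a2 was at 32.7, 29.2 and 35.03 CPM in the controls and 52.1, 77.6 and 50.9 CPM in the cKO libraries (0.90 ± 0.16, adjusted p = 0.012) and Nr4a3, also a gene of the maturation list, at 29.9, 27.7 and 41.5 CPM in the controls and 55.2, 71.6 and 52.1 CPM in the cKO libraries (0.85 ± 0.15, adjusted p = 0.012). In both the highest value was that of cKO library 2, and the groups did not overlap. Nr4a2 was lost without control library 1 or 2 (adjusted p up to 0.0688) and Nr4a3 without control library 1 or 2 or cKO library 2 (up to 0.0814). Nr4a1 and Egr1, named after their values were seen, were lower in every cKO library without passing (122, 124 and 114 against 99.2, 85.3 and 89.9 CPM, adjusted p = 0.156; 42.1, 39.7 and 35.1 against 28, 31.4 and 30.1 CPM, adjusted p = 0.271).

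AP-1 binds TGANTCA, which was found on either strand in 6.75% of all promoters, in 4.71% of those of genes tested, in 4 of the 42 promoters of called higher genes (9.52%) and in none of the 8 of called lower genes. The matches were before Adam19, Cd80, Dnah2 and Zfp36l1. The window of Adam19, the most stable of these calls, is shown for 1 of its starts, chr11:46055734-46055983 on the plus strand, with the match 131 bases before the start in capitals.
Adam19: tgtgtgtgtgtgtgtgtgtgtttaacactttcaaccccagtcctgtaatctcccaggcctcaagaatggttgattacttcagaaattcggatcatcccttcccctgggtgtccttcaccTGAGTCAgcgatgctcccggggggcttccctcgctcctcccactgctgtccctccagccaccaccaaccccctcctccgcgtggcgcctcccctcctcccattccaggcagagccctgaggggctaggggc
Whether any factor occupies these letters in cDC1s was not measured.

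Heat shock genes fell in 2 members. Of 31 tested heat shock and chaperone genes, 2 fell and 0 rose (median −0.16, against 0.167% called lower over all genes), and 16 were lower and 1 higher without overlap (7.72% and 7.80% over all genes). Hspa1a and Hspa1b, neighbouring genes of the inducible chaperone HSP70, were at 785, 709.9 and 722 CPM in the controls and 437, 383 and 466 CPM in the cKO libraries and at 937, 919.6 and 862 CPM in the controls and 582, 484 and 583 CPM in the cKO libraries (Hspa1a -0.78 ± 0.09, adjusted p = 0.000129; Hspa1b -0.72 ± 0.08, adjusted p = 9.96e-05). Both groups stood well apart, and both genes passed in every alternative. Hspa1a and Hspa1b are near-identical copies, so reads may be split between them and their levels are not independent. The summed level of the list was 7727 to 8139 CPM in the controls and 6561 to 6827 CPM in the cKO libraries.

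The other chaperones did not pass. Dnajb1, an HSP40 co-chaperone, was at 176, 171 and 145 against 123, 127 and 137 CPM (log2 fold change -0.35, adjusted p = 0.152), Hspb1, a small heat shock protein, at 10.9, 9.82 and 10.7 against 7.71, 6.72 and 6.91 CPM (-0.56, adjusted p = 0.16) and Hspa8, the constitutive HSC70, at 2087, 2041 and 2201 against 1774, 1869 and 1891 CPM (-0.19, adjusted p = 0.283). They were named after their values were seen. Of 33 tested genes of the unfolded protein response none was called by edgeR (6 at an unadjusted p under 0.05, 1 called by DESeq2 and 0 by limma-voom). Over all genes, 1304 of 17362 had an unadjusted p under 0.05. Of the 33, 7 were lower and 0 higher without overlap (7.72% and 7.80% over all genes).

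Uptake of dead cells gave 1 rise, Clec9a, and 1 fall among 42 tested genes (0.288% and 0.167% over all genes). The median of this list was 0.04, and 5 members were higher and 9 lower without overlap (7.80% and 7.72% over all genes). Mfge8, a secreted protein that bridges phosphatidylserine on dying cells to integrins, was at 872, 849 and 862 CPM in the controls and 558, 507 and 592 CPM in the cKO libraries (-0.64 ± 0.12, adjusted p = 0.0187). All cKO libraries lay below all controls. It passed in the fit of lymph node libraries alone (adjusted p = 0.00521), yet in the shared fit it was lost without any of control libraries 1, 2 and 3 and cKO libraries 1 and 2 (adjusted p up to 0.105).

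Lipid genes changed in 2 members on different lists (over all genes 0.288% were called higher and 0.167% lower). Apoe, the apolipoprotein of cholesterol efflux, was the 1 called gene of 18 LXR targets, at 66.1, 63.05 and 61.3 CPM in the controls and 46.8, 46.7 and 47.8 CPM in the cKO libraries (-0.43 ± 0.08, adjusted p = 0.0284), and it is also on the macrophage list. Hmgcs1, an enzyme of cholesterol synthesis, was the 1 called of 33 cholesterol and SREBP genes, at 85.5, 80.2 and 82.4 CPM in the controls and 114, 109 and 115 CPM in the cKO libraries (0.45 ± 0.09, adjusted p = 0.0257). On that list 10 genes were higher and 1 lower without overlap (7.80% and 7.72% over all genes), and the median was 0.15. Apoe and Hmgcs1 both missed the threshold with any 1 library left out (adjusted p up to 0.18 and 0.133).

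Genes of cell death rose in 2 of 32 tested members, and 0 fell (median 0.08, against 0.288% called higher over all genes). Of the 32, 8 were higher and 1 lower without overlap (7.80% and 7.72% over all genes). Bcl2l11, which encodes the death-promoting BH3 protein BIM, was at 48.1, 47.4 and 42.96 CPM in the controls and 66.2, 89.3 and 65.3 CPM in the cKO libraries (0.67 ± 0.11, adjusted p = 0.00992). Apaf1, the scaffold of the apoptosome, was at 39.3, 35.9 and 38.4 CPM in the controls and 52.8, 57.4 and 52.5 CPM in the cKO libraries (0.52 ± 0.11, adjusted p = 0.0475). For both genes every cKO library was above every control, with cKO library 2 highest. Bcl2l11 missed the threshold without control library 3 (adjusted p = 0.0521) and Apaf1 with any 1 library left out (up to 0.19).

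Further called genes fell outside the lists. Neat1, the long noncoding RNA that builds paraspeckles, was at 1564, 1615 and 1768 CPM in the controls and 2188, 2318 and 2125 CPM in the cKO libraries (0.42 ± 0.07, adjusted p = 0.00758), and was lost without control library 1 (adjusted p = 0.058). Dnah2, a dynein heavy chain of cilia, was at 5.12, 5.71 and 5.95 against 10.3, 14.6 and 14.2 CPM (1.22 ± 0.25, adjusted p = 0.0478), and missed the threshold with any 1 library left out (up to 0.261). The genes Zfp36l1, Nabp1, Tmem63b and Asb2 are named after their values were seen. Zfp36l1, which destabilises AU-rich mRNAs, was at 896, 860.4 and 872 against 1177, 1068 and 1106 CPM (0.35 ± 0.06, adjusted p = 0.0156), and Nabp1, a protein of single-stranded DNA, at 261, 231 and 248 against 323, 301 and 315 CPM (0.35 ± 0.07, adjusted p = 0.0358). Tmem63b, a membrane cation channel, was at 37.02, 39.2 and 41.1 against 52.5, 54.4 and 53.7 CPM (0.45 ± 0.09, adjusted p = 0.0375), and Asb2, a substrate adaptor of a ubiquitin ligase, at 1.14, 1.97 and 1.18 against 3.20, 3.89 and 2.82 CPM (1.20 ± 0.23, adjusted p = 0.023). All of them were higher in every cKO library, and each was lost in 4 or more of the 6 fits that left out 1 library. Predicted genes and a pseudogene made up 5 of the 47, all higher, namely 1700028N14Rik, 5430437J10Rik, Gm38115, Gm19951 and Gm16617.

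**Figure D4:**
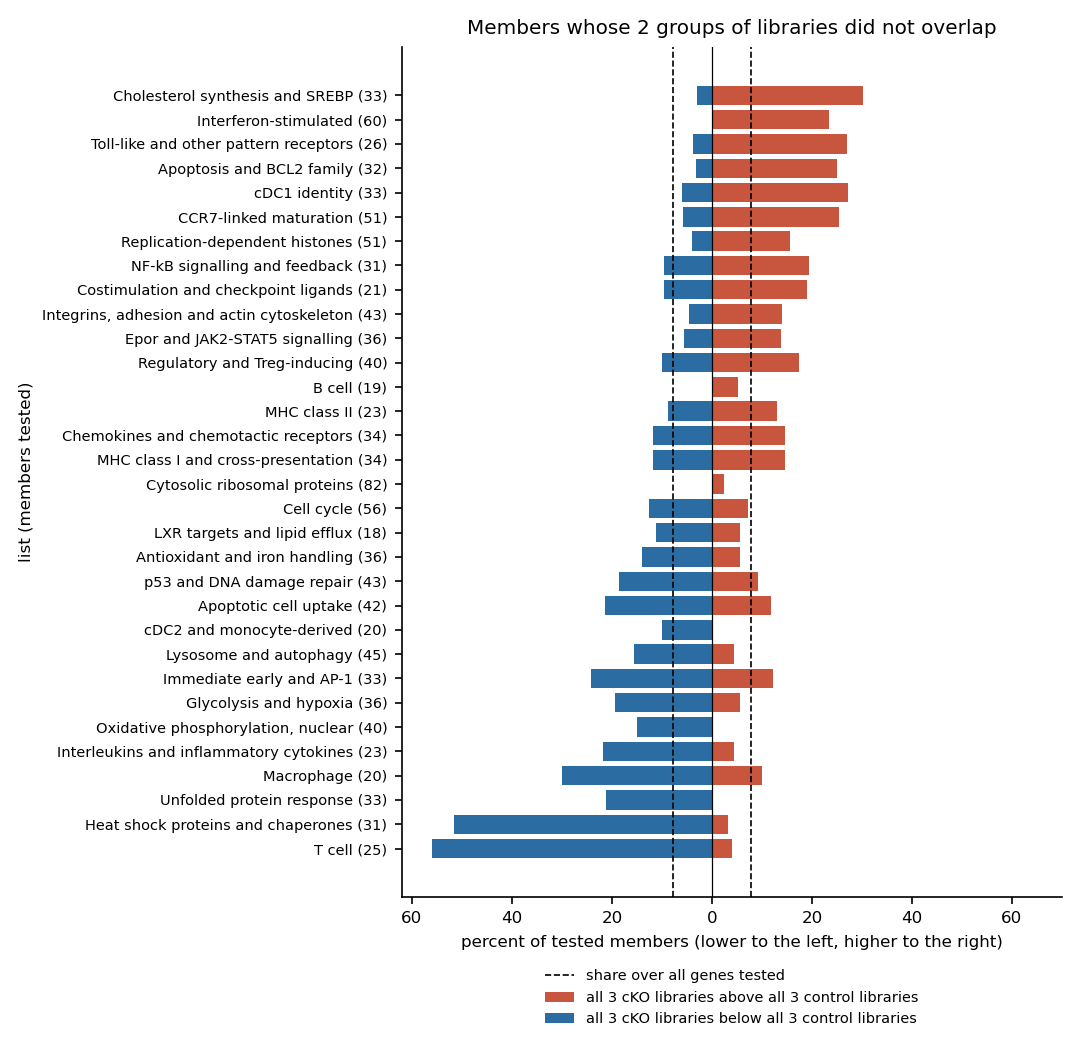
Percent of each list's tested members for which all 3 cKO libraries were above (red, to the right) or below (blue, to the left) all 3 controls, for lists with at least 18 tested members, whose number is in parentheses. Dashed lines give the shares over all genes tested (7.80% and 7.72%), and the T cell list (14 lower, 1 higher of 25) and the heat shock list (16 lower, 1 higher of 31) reach farthest to the left.

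Markers of other cells moved with the groups on 1 list above all. Of 25 T cell markers, all tested and none at 0 counts, 14 were lower and 1 higher without overlap (7.72% and 7.80% over all genes). None of these markers was called by edgeR (3 at an unadjusted p under 0.05, 0 called by DESeq2 and 1 by limma-voom). Over all genes, 1304 of 17362 had an unadjusted p under 0.05. The median log2 fold change of the markers was −0.45. Their summed level was 485 to 497 CPM in the controls and 387 to 419 CPM in the cKO libraries. Trac was at 40.1, 34.03 and 30.97 against 21.7, 25.4 and 24.7 CPM (adjusted p = 0.617) and Lck, a T cell kinase, at 61.97, 51.7 and 62.5 against 32.4, 24.9 and 33.3 CPM (adjusted p = 0.756). Summed B cell markers were at 236 to 254 against 207 to 238 CPM and macrophage markers at 264 to 309 against 243 to 258 CPM, with Apoe called on the macrophage list and Iglc2 on the plasma cell list. The part of these markers in the changes of Cd69, Apoe and the other called genes was not tested. In bulk libraries, fewer cells of a type and less RNA per cell cannot be told apart.

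Several programmes held no called gene. Over all genes tested 0.455% were called, so 0 calls on a list of this size say little. None of 56 cell cycle genes passed (median −0.12), nor any of 36 glycolysis and hypoxia genes (−0.08), 40 nuclear genes of oxidative phosphorylation (−0.02), 45 lysosome and autophagy genes (−0.07), 36 antioxidant and iron genes (−0.05) or 26 pattern recognition receptors (0.17). At an unadjusted p under 0.05 edgeR had 8, 5, 1, 4, 4 and 5 genes on these lists in the same order, against 1304 of all 17362 tested. DESeq2 and limma-voom called 0 on each. In the same order, 4, 2, 0, 2, 2 and 7 were higher without overlap and 7, 7, 6, 7, 5 and 1 lower (7.80% and 7.72% over all genes). Among the core genes, the transferrin receptor Tfrc was low in both groups (1.88, 1.72 and 1.499 against 1.64, 2.58 and 0.758 CPM), and Lyn, a SRC family kinase, was at 54.6, 41.2 and 46.7 against 52.2, 52.8 and 55.5 CPM (0.17 ± 0.11, adjusted p = 0.861). A p that misses the threshold does not show that these genes were alike in the 2 groups.

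Spleen CCR7+ cDC1s of the same genotypes gave a direct comparison of the cKO minus control change. What libraries of a group share beyond genotype again cannot be told apart from the knockout. There 106 of the 17362 genes were called (0.611%), and the difference between the effects in the 2 tissues was called for 55 genes (0.317%), of which 24 were immunoglobulin segments and 2 gland genes. Of the 47 lymph node genes, 2 were also called in spleen and 12 differed between tissues. With the immunoglobulin and T cell receptor segments and gland genes removed before the test, 22 genes were called in spleen and 9 for the tissue difference, among them 4 of these 12 (Nabp1, Rel, Adam19 and Gm16617; adjusted p of the other 8 from 0.0501 to 0.0748). With 1 lymph node library left out, 5 to 10 of the 12 passed, fewest without control library 1, and with the replicate block 1 did. The sharpest were Nabp1, Rel and Adam19. Nabp1 rose in lymph node and had a spleen effect of -0.31 ± 0.07, a difference of 0.66 ± 0.10 (adjusted p = 0.00607) on the log2 scale. Rel differed by 0.76 ± 0.12 (adjusted p = 0.011), with a spleen effect of -0.28 ± 0.09. Adam19 was at 215 ± 16.2 against 205 ± 10.1 CPM in spleen controls and spleen cKO libraries (SD, n = 3 a group), and the tissue difference was 0.71 ± 0.11 (adjusted p = 0.011).

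Further genes with a tissue difference had roles in antigen presentation and death. Cd274 rose in lymph node and had a spleen effect of -0.15 ± 0.08, a difference of 0.63 ± 0.11 (adjusted p = 0.02). Cd8a differed by 0.71 ± 0.12 (adjusted p = 0.0178) (spleen -0.20 ± 0.09) and Bcl2l11 by 0.86 ± 0.16 (adjusted p = 0.0295) (spleen -0.18 ± 0.11). Mfge8 fell in lymph node and had a spleen effect of 0.23 ± 0.12, a difference of -0.87 ± 0.17 (adjusted p = 0.0375). None of the spleen effects of these genes passed on its own. For Rad50 and Tpm2 the tissues did not differ beyond the threshold (0.32 ± 0.12 (adjusted p = 0.268) and 0.54 ± 0.19 (adjusted p = 0.268)), nor did they for Hspa1a and Hspa1b (-0.51 ± 0.12 (adjusted p = 0.0988) and -0.37 ± 0.11 (adjusted p = 0.182)).

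**Figure D5:**
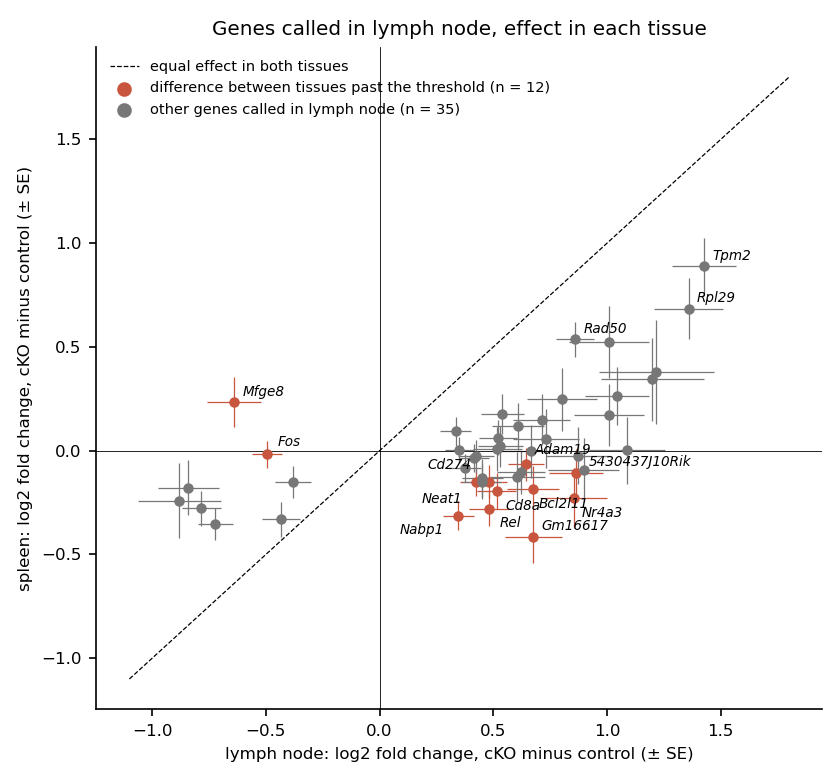
Log2 fold change of the 47 genes in lymph node (horizontal) and in spleen (vertical), cKO minus control, each with its SE. The 12 genes in red had a tissue difference past the threshold and lie near or beyond 0 in spleen, while Tpm2, Rad50 and Rpl29 lie toward the dashed line of equal effects.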

How the data were processed

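RNA of sorted cells was amplified with the SMART-Seq mRNA kit from 10 ng of RNA, and 150 pg of cDNA entered Nextera XT, per the labels' protocols. Reads were aligned with HISAT2 2.1.0 to mm10 and counted with featureCounts 2.0.8, per the submitters' processing notes. The authors deposited whole-number counts per gene for Ensembl GRCm38 models, made per the file headers from paired reads without strand, so a pair may add 2 counts. The header names no option for reads that fall on overlapping genes, so levels of such genes are uncertain. No column was left unmatched (0 unused).

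Genes were filtered with filterByExpr (minimum count 10, minimum total 15), scaled by TMM and tested with edgeR 4.0.16 (robust quasi-likelihood, R 4.3.3) in a fit of 12 libraries with 4 group means and 8 residual degrees of freedom. P-values carry the Benjamini-Hochberg adjustment across every gene in the test, and calls use 0.05. Standard errors are the log2 fold change over the root of F. CPM has a floor of 3 counts per library, 0.0568 to 0.0725 CPM. Intervals and floors cover counting error only and treat each count as a separate event. Steps were tested on simulated data.

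The genes named were a core list, up to 20 a direction with the largest change and up to 10 with the smallest p among those past the threshold (mean of at least 3 log2 CPM, no overlap), and up to 4 a direction per list. The members and lists were chosen with earlier results of these data known. The gland genes were listed after their values were seen. The labels do not say that replicate numbers pair the libraries, and the main fit did not pair them. Alternatives were other scaling and filters, DESeq2 1.42.0, limma 3.58.1 (voom), the lymph node libraries alone, a replicate block, each library left out, and 3 chosen after seeing the data. Promoters are from RefSeq, matched by symbol for 37 of the 47 genes. Beyond these promoter windows, genome sequence was not used here. Results for some genes are not reported here.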

Additional observations from a re-analysis of the deposited data

Results flagged for a closer look

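For 14 named genes the cKO minus control change differed between lymph node and spleen by a test of the difference itself. The test was edgeR quasi-likelihood, adjusted over 17362 genes, with n = 3 libraries in each of 4 groups. It compares these sets of libraries, and what libraries of a group share beyond genotype cannot be told apart from the knockout. Of the 12 that are not gland genes, 4 passed when immunoglobulin and T cell receptor segments and gland genes were removed before the test, namely Nabp1, Rel, Adam19 and Gm16617, and 1 passed with the replicate block. Among genes that were higher in lymph node cKO libraries, the lymph node minus spleen difference of log2 fold changes was 0.66 ± 0.10 (adjusted p = 0.00607) for Nabp1, 0.76 ± 0.12 (adjusted p = 0.011) for Rel, 0.71 ± 0.11 (adjusted p = 0.011) for Adam19 and 0.57 ± 0.10 (adjusted p = 0.0174) for Neat1. It was 0.71 ± 0.12 (adjusted p = 0.0178) for Cd8a, 0.63 ± 0.11 (adjusted p = 0.02) for Cd274, 0.86 ± 0.16 (adjusted p = 0.0295) for Bcl2l11 and 1.08 ± 0.21 (adjusted p = 0.037) for Nr4a3. The predicted gene Gm16617 and the pseudogene 5430437J10Rik differed by 1.09 ± 0.18 (adjusted p = 0.0121) and 0.97 ± 0.17 (adjusted p = 0.0175), and Gm16617 shares 38.5% of its exon bases with Arhgef40.

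Among genes that were lower in lymph node cKO libraries, the difference was -0.87 ± 0.17 (adjusted p = 0.0375) for Mfge8 and -0.48 ± 0.09 (adjusted p = 0.0417) for Fos. For the gland genes it was -13.01 ± 1.33 (adjusted p = 0.000513) for Amy1 and -13.91 ± 2.25 (adjusted p = 0.0175) for Car6, fitted values that depend on the prior count. Amy1 was at 0, 0 and 0.101 CPM in spleen controls and 1.17, 0 and 0.636 CPM in spleen cKO libraries, and Car6 at 0 in all spleen libraries but cKO library 2 (0.1997 CPM). Groups of 3 libraries were too small for a test of outlying samples.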

How the results depend on the processing

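Counts of called genes and the balance of their directions both moved. Against 79 genes in lymph node, 106 in spleen and 55 for the tissue difference, DESeq2 called 177, 549 and 426, and no filter on low counts gave 170, 436 and 364. The limma-voom fit called 161 in spleen. The 6 lymph node libraries alone gave 44 calls, 14 higher and 30 lower, so the share of higher calls went from 63.3% to 31.8%. Limma-voom gave 86 in lymph node (54.7% higher), no filter 74.7% higher. Without immunoglobulin and T cell receptor segments and gland genes, which was chosen after seeing the data, 36 genes were called (31 higher) in lymph node, 22 in spleen and 9 for the tissue difference. A block for the share of the 20 most abundant genes, also chosen after seeing the data, gave 100 in lymph node and 148 for the tissue difference. Leaving out 1 lymph node library gave 51 to 72 genes in lymph node and 30 to 67 for the tissue difference, lowest without control library 1 (51 and 30) and cKO library 1 (51 and 35). The Epor bound ranged from 12.9-fold to 27.7-fold.

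The replicate block gave 35 calls in lymph node (45.7% higher), 6 in spleen and 22 for the tissue difference, and 10 of the 47 genes passed in it. Deviations of same-numbered libraries correlated with r of −0.02, −0.46 and −0.42 over 6850 genes, so no likeness of same-numbered libraries was seen. With 3 libraries a group and a split that crosses genotype, this cannot show whether such libraries share an origin. Of 574 list medians under the alternatives, 18 moved by more than the spread between libraries. Of 574 list counts of called members, 142 moved by over 1.5 times or rose from 0. On a list with 1 or 2 calls, the loss of 1 gene is enough for this. Of 1886 values of named genes, 293 lost the threshold and 4 passed it newly. The 1886 include genes not called in the main fit, which could not lose it, so the share lost among called genes is higher. Scaling moved the median of all genes by at most 0.02. Low counts limit Epor, Cish, Ido1 and Tfrc.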
